A study of Mus musculus with 6 samples.

Results

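The 8 genes described here encode enzymes that carry acetyl-CoA through mevalonate to farnesyl diphosphate (FPP) and geranylgeranyl diphosphate (GGPP): Acat2, Hmgcs1, Mvk, Pmvk, Mvd, Idi1, Fdps and Ggps1. They were chosen by symbol, and all 8 of them were found among the 35434 genes of the deposited FPKM table. All 8 also had a mean FPKM of at least 1, the limit set for testing, which 9795 genes reached. RNA was sequenced from bone marrow-derived macrophages (BMDMs) that were grown from C57BL/6 mouse femurs with M-CSF, the growth factor that drives marrow cells to become macrophages. There were 3 control libraries (Ctrl) without zoledronic acid and 3 libraries from cells 12 h after stimulation with zoledronic acid (ZA). The concentration of ZA and any vehicle in the controls were not stated for these libraries, and neither was the number of mice behind them. The p-values therefore set the difference between the groups against the spread of libraries within the groups, which may be technical in part. In bulk RNA of this kind, fewer cells of a type and less RNA per cell cannot be told apart. The question addressed by the sequencing was how ZA alters macrophages, and the mevalonate pathway holds the known target of the drug.

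The mevalonate pathway supplies cells with isoprenoid units. Acetyl-CoA is condensed to HMG-CoA, reduced to mevalonate, phosphorylated and decarboxylated to isopentenyl diphosphate, and joined head to tail into FPP and GGPP. FPP is the branch point to sterols, dolichol, ubiquinone and farnesylated proteins, and GGPP is attached to small GTPases such as the Rac and Rab proteins. Nitrogen-containing bisphosphonates such as ZA bind and inhibit FPP synthase, the product of Fdps, after uptake into phagocytic cells such as osteoclasts and macrophages. When sterols are low, the transcription factor SREBP2 is released from the endoplasmic reticulum by SCAP and raises transcription of most genes of this pathway.

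SREBP binds short sterol regulatory elements (SRE) near start sites, usually beside NF-Y bound at CCAAT boxes or Sp1 bound at GC boxes. Start site sequences were found in RefSeq (GRCm38.p6) for 7 of the 8 genes, each covering 250 bases before to 50 bases after the start, with 2 start sites for Pmvk. These coordinates were not mixed with the deposited values, whose build is given as mm9 in the submitters' processing notes. Of the sequences searched, 5 are shown, those of Hmgcs1, Mvk, Mvd and Idi1, with higher means in ZA, and of Ggps1, with a lower mean. The sequences of Acat2 and Pmvk, whose means were also higher in ZA, are not shown. Acat2 and the second start of Pmvk hold no CCAAT box. They are written 5′ to 3′ along the gene, with capitals for the SRE core (TCACNCCAC) and the NF-Y box (CCAAT), on either strand.
Hmgcs1 (chr13:119690101-119690400, plus strand): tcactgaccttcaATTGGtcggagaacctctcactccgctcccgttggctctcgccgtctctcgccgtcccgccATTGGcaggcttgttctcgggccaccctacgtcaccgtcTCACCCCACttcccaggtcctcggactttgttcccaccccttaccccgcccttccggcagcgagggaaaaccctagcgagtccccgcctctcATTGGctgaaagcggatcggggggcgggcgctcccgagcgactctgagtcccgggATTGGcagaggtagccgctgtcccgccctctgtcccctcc
Mvk (chr5:114444019-114444318, plus strand): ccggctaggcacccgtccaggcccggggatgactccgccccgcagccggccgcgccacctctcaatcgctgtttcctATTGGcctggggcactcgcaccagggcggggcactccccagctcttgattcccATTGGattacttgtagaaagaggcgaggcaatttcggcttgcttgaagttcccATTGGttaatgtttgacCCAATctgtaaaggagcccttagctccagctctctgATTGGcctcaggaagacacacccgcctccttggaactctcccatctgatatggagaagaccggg
Mvd (chr8:122443373-122443672, minus strand): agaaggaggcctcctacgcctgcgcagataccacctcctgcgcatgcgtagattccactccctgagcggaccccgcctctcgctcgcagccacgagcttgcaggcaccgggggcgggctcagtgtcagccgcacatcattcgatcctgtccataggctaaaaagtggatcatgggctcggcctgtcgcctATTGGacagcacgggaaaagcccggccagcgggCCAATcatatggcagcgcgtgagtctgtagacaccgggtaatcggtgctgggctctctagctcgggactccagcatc
Idi1 (chr13:8885356-8885655, plus strand): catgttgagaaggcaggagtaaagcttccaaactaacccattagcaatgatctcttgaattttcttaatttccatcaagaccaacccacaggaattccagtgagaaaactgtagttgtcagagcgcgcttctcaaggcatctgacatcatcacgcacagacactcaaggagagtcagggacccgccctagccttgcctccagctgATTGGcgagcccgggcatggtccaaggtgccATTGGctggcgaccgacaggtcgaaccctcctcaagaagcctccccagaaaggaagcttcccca
Ggps1 (chr13:14063439-14063738, minus strand): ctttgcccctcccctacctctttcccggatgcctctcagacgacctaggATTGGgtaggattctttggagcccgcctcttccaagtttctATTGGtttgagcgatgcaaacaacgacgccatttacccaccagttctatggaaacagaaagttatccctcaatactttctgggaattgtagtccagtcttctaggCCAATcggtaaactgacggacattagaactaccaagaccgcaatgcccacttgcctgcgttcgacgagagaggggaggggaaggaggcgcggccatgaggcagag

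The SRE core occurred in 1 of the 8 start site sequences, that of Hmgcs1, from -137 to -129 relative to the start, and in 1.28% of the 30888 start site sequences of genes in the table. NF-Y boxes were found in 6 of the 8 sequences, with 37.3% as the share over the table. Mvk held 5 of them, Hmgcs1 held 4, Ggps1 held 3, Mvd and Idi1 held 2 each, and the first start of Pmvk held 1. GC boxes (GGGCGG) were found in 5 sequences, those of Acat2, Hmgcs1, Mvk, Mvd and Idi1, against 37.2% over the table. The element described in the FPP synthase promoter (TCACACGAG) and the E-box (CACGTG) were found in 0 of the 8, and in 0.068% and 7.32% of all sequences. Both strands were searched for each motif, and no match overlapped another in these sequences. NF-Y boxes occurred both in genes with higher means in ZA and in Ggps1, whose mean was lower. A match describes letters in this window and not binding, and the start site of Fdps was not analysed here.

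**Figure D1:**
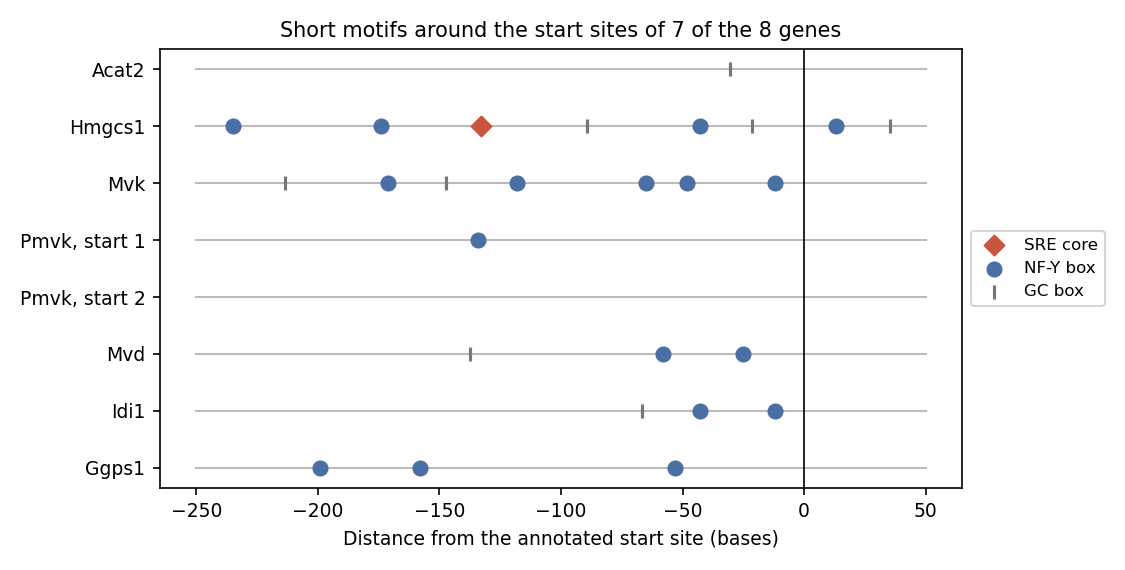
Positions of 3 motifs in the start site sequences of 7 genes, with the distance from the annotated start in bases on the x axis and one line per start site. Diamonds stand for the SRE core, circles for NF-Y boxes and bars for GC boxes. The single diamond lies in Hmgcs1, and the second start of Pmvk holds no match.

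In ZA-treated BMDMs, 7 of the 8 genes had higher mean FPKM than in Ctrl, and Ggps1 had a lower one. Fdps and Idi1 rose with adjusted p-values under 0.05 (limma, Benjamini-Hochberg over all genes tested), by 29.3% and 40.7% of their Ctrl means. At this threshold 2 of the 8 genes were called higher, where 0.204% of all genes tested were called higher. None of the 8 was called lower, where 0.163% of all genes were. At an unadjusted p-value under 0.05, 7 of the 8 genes were higher and 0 lower, against 7.49% and 4.85% of all genes. The ZA libraries lay above all Ctrl libraries for 5 of the 8 genes, against 11.4% of all genes, and below them for 1, against 6.76%. On the log2(FPKM + 1) scale the pathway genes had a median log2 fold change of 0.29, beside 0.01 for every gene tested. Added over the 8 genes, FPKM came to 91.6, 93.3 and 97.2 for Ctrl 1 to 3 and to 111.7, 115.3 and 125.0 for ZA 1 to 3. These sums did not overlap, with means of 94.0 ± 2.88 for Ctrl and 117.3 ± 6.85 for ZA (SD, n = 3). Fdps, Hmgcs1 and Mvd, with the highest FPKM, weigh most in them. That the sums are apart follows from the separate values of the genes and is no further result.

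**Figure D2:**
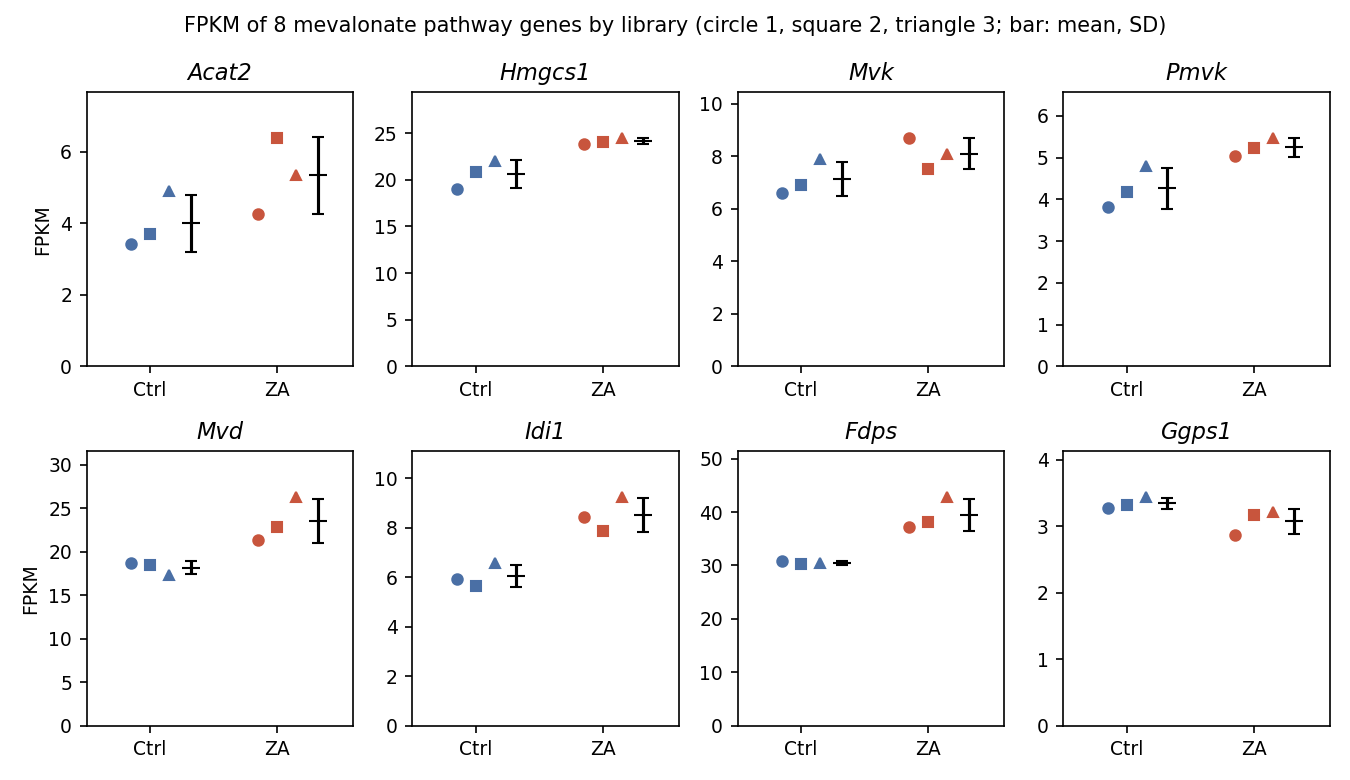
FPKM of each gene, on the y axis from 0, in the 3 Ctrl and 3 ZA libraries. Circles, squares and triangles are libraries 1, 2 and 3, and the bars give the mean and SD. The groups are apart for Hmgcs1, Pmvk, Mvd, Idi1 and Fdps, with ZA higher, and for Ggps1, with ZA lower.

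The first step of the pathway joins 2 molecules of acetyl-CoA, and in the cytosol this is the work of ACAT2. Acat2 had 3.41, 3.70 and 4.91 FPKM in Ctrl and 4.26, 6.39 and 5.36 in ZA. The groups overlapped, with ZA 1 below Ctrl 3, and the libraries of each group differed more than for any other gene of the pathway, with SDs of 19.9% of the mean in both groups. The log2 fold change was 0.34 (95% confidence interval 0.02 to 0.66, adjusted p = 0.376 from limma), and the difference did not pass the adjusted threshold. Acat2 had between 295 and 552 fragments per library, for which counting alone gives an error of about 5.37% in Ctrl and 4.65% in ZA. Of its 150-base transcript stretches in GENCODE M21, 19.9% also occur in Acat3 or Tcp1 on one strand or the other. Acat3 itself stood at 0.0226 to 0.135 FPKM, while Tcp1 stood at 58.0 to 63.1 FPKM and its groups overlapped.

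HMG-CoA synthase, the product of Hmgcs1, adds a further acetyl group to make HMG-CoA. Hmgcs1 had 19.0, 20.8 and 22.0 FPKM in Ctrl and 23.8, 24.1 and 24.5 in ZA. All ZA libraries were above all Ctrl libraries. The ZA libraries lay close together, with an SD of 1.39% of the mean, below the 1.54% that counting alone gives. Its log2 fold change was 0.22 ± 0.05 (standard error), with an adjusted p of 0.113 from limma.

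Mevalonate is phosphorylated by mevalonate kinase and then by phosphomevalonate kinase. Mvk had 6.62, 6.90 and 7.88 FPKM in Ctrl and 8.71, 7.52 and 8.08 in ZA. The groups overlapped, since ZA 2 lay below Ctrl 3, and the log2 fold change of 0.16 had an adjusted p of 0.383 from limma. Mvk starts head to head with Mmab, a cobalamin enzyme gene on the other strand, which had a log2 fold change of 0.12 and an adjusted p of 0.509 from limma. Pmvk had 3.81, 4.19 and 4.79 FPKM in Ctrl and 5.03, 5.22 and 5.48 in ZA. Its groups did not overlap, and it differed by 0.25 ± 0.07 on the log2 scale (standard error), with limma giving an adjusted p of 0.204. The FPKM of Pmvk rests on a gene length of 3401 bases, recovered from the deposited values, while its longest GENCODE M21 transcript has 1194 bases, so that its level per length is sensitive to the annotation.

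Mevalonate diphosphate decarboxylase makes isopentenyl diphosphate. Mvd had 18.7, 18.5 and 17.3 FPKM in Ctrl and 21.4, 22.8 and 26.3 in ZA. The groups did not overlap and ZA 3 stood highest, with a spread in ZA of 10.8% of the mean against 4.04% in Ctrl. The log2 fold change of 0.35 ± 0.07 (standard error) had an adjusted p of 0.0949 from limma. Mvd ranked 84 of 9795 genes by unadjusted p, and 35 by log2 fold change from the highest.

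IDI1 interconverts isopentenyl and dimethylallyl diphosphate, the units that FPP synthase joins. Idi1 had 5.92, 5.65 and 6.56 FPKM in Ctrl and 8.41, 7.86 and 9.23 in ZA. The lowest ZA library was above the highest Ctrl library. Idi1 averaged 6.04 ± 0.463 FPKM over the Ctrl libraries and 8.50 ± 0.692 over the ZA libraries (SD, n = 3). It had the highest log2 fold change of the 8 genes, 0.43 (95% confidence interval 0.28 to 0.58, adjusted p = 0.0486 from limma), and ranked 13 of 9795 genes by it. As a log2 ratio of means, without the added 1, the difference was 0.49. The call for Idi1 was lost when any 1 of the 6 libraries was left out, with adjusted p between 0.0646 and 0.200, and after centring on the median, with adjusted p of 0.0503. Testing all genes without a filter, quantile normalization or a variance prior without a trend also ended it. Between 674 and 1116 fragments per library lay behind these values. Of its 150-base stretches, 18.8% also occur in Gm13502, a processed pseudogene, or in Gm48574, an unclassified transcript on the other strand that overlaps its start.

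Fdps encodes FPP synthase, the enzyme that ZA inhibits. Fdps had 30.9, 30.2 and 30.4 FPKM in Ctrl and 37.3, 38.2 and 42.8 in ZA. The SD of the Ctrl libraries was 1.09% of their mean, and every ZA library was above all Ctrl libraries, with ZA 3 highest. Fdps averaged 30.5 ± 0.333 FPKM over the Ctrl libraries and 39.4 ± 2.98 over the ZA libraries (SD, n = 3). Its log2 fold change came to 0.36 (95% confidence interval 0.25 to 0.47, adjusted p = 0.0452 from limma), and Fdps ranked 15 of 9795 genes by unadjusted p. The call was lost when Ctrl 1, Ctrl 2, Ctrl 3 or ZA 2 was left out, with adjusted p up to 0.200, and it held without ZA 1 or ZA 3. It was also lost without a filter or without a trend. Between 1836 and 2638 fragments per library were behind Fdps, for which counting error is 2.32% in Ctrl and 2.04% in ZA. The Ctrl SD of 1.09% was thus below what counting alone gives. Of its 150-base stretches, 17.9% also occur in the processed pseudogenes Gm3571 and Gm5873 or in Gm43738, a same-strand gene model that spans Fdps and Rusc1. Rusc1 had a log2 fold change of 0.05 and an adjusted p of 0.699 from limma.

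GGPP synthase, the product of Ggps1, adds 1 more isoprenoid unit to FPP. Ggps1 had 3.28, 3.32 and 3.44 FPKM in Ctrl and 2.86, 3.17 and 3.21 in ZA. The groups did not overlap, and here all ZA libraries were below all Ctrl libraries. The log2 fold change was -0.09 (95% confidence interval -0.20 to 0.02, adjusted p = 0.480 from limma). Ggps1 was the only one of the 8 genes with a lower mean in ZA, by a difference that its interval does not separate from 0. The ratio of Fdps to Ggps1 FPKM stood at 9.40, 9.12 and 8.82 for the Ctrl libraries and at 13.01, 12.07 and 13.34 for the ZA libraries. That these ratios are apart follows from the separate values of Fdps and Ggps1 and is no further result. The ratio of Fdps to Idi1, both called higher, stood at 5.07 ± 0.378 for Ctrl and 4.64 ± 0.216 for ZA (SD, n = 3). Compared as log2 ratios, the groups gave a two-sided exact permutation p of 0.3. With 3 libraries per group this test cannot fall below 0.1, so it cannot decide whether the ratio differed. Ggps1 overlaps the start of Arid4b on the other strand, and 1.79% of its stretches occur there. Arid4b had a log2 fold change of 0.06 with an adjusted p of 0.588 from limma.

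**Figure D3:**
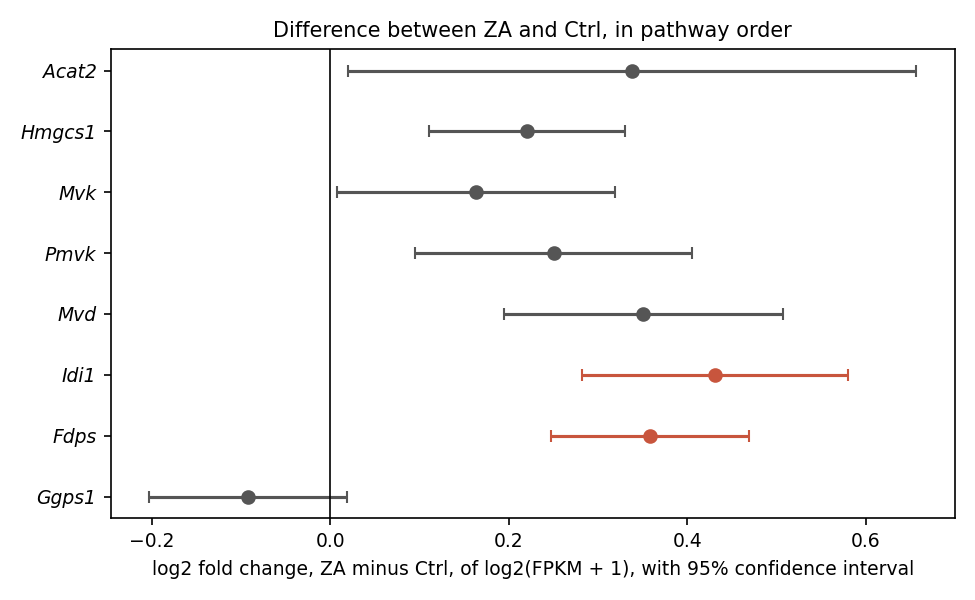
Log2 fold change of each gene on the x axis, as ZA minus Ctrl of log2(FPKM + 1), with 95% confidence intervals, in pathway order from top to bottom. Red marks an adjusted p under 0.05. The intervals of 7 genes lie above 0, and that of Ggps1 spans it.

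Per length, the levels of the 8 genes did not follow their order in the pathway. In Ctrl, Fdps had the highest FPKM, followed by Hmgcs1, Mvd, Mvk, Idi1, Pmvk, Acat2 and Ggps1. Fdps was 1.48 times the FPKM of Hmgcs1, and Hmgcs1 1.14 times that of Mvd, with no overlap of the Ctrl libraries for either pair. This order rests on the gene lengths recovered from the deposited values. Scaled instead by the longest GENCODE M21 transcript, a choice made after the data were seen, Hmgcs1 came first with 25.1, followed by Mvd with 17.4 and Fdps with 15.1, and Acat2 rather than Ggps1 was lowest. The length behind the deposited values was 1461 bases for Fdps, against a longest transcript of 2953, and 7336 for Ggps1, against 4244. On the deposited scale, neighbours that overlapped in Ctrl were Pmvk with Acat2 and Acat2 with Ggps1. In ZA, Hmgcs1 overlapped Mvd and Mvk overlapped Idi1, which had been apart in Ctrl. Among all genes tested, the mean level of Fdps was at the 83.4th percentile, that of Hmgcs1 at the 74.6th and that of Ggps1 at the 21.1st. Ctrl 3 was the highest Ctrl library for 6 of the 8 genes and ZA 3 the highest ZA library for 6, while Ctrl 1 was the lowest Ctrl library for 5 and ZA 1 the lowest ZA library for 6.

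Other genes around the pathway were taken from hand-written lists. The mitochondrial thiolase Acat1 had a log2 fold change of 0.02 and an adjusted p of 0.866 from limma. Idi2, another isopentenyl isomerase gene, was listed at 0 in all libraries. Of 13 genes from squalene to cholesterol, 13 were tested, with a median log2 fold change of 0.24. Among these 13, 5 were called higher and 0 lower, against 0.204% and 0.163% of all genes tested. The groups were apart and ZA higher for 11, against 11.4% of all genes. Sqle, the squalene epoxidase, had 0.38 (adjusted p = 0.0486), Cyp51 0.35 (0.0304), Msmo1 0.28 (0.0304) and Lss 0.26 (0.0489), all log2 fold changes with adjusted p from limma. Ebp was the only gene of this list with a lower mean, at -0.02.

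Another list held genes that use FPP and GGPP for other ends. Of 13 such genes, 11 were tested, with a median log2 fold change of 0.04. Among these 11, 0 were called in either direction, against 0.204% higher and 0.163% lower over all genes. An unadjusted p under 0.05 was reached by 0 of them, against 7.49% higher and 4.85% lower over all genes. For so few genes, counts of 0 are close to these shares. The groups were apart and ZA higher for 2 of the 11, against 11.4% of all genes, and lower for 0, against 6.76%. Pdss2, which was below the limit for testing, was apart and lower, with 0.911 to 1.013 FPKM in Ctrl and 0.835 to 0.890 in ZA. The 3 tested genes with the smallest p were Fnta, Dhdds of dolichol synthesis and Pggt1b, with log2 fold changes of 0.06, 0.05 and 0.06. Fnta encodes a subunit shared by farnesyl transferase and geranylgeranyl transferase type I. Of 8 genes of SREBP control, 2 were called higher and 0 lower, against the same shares, and the median log2 fold change was 0.02. For 3 of these 8 the groups were apart and ZA higher, against 11.4% of all genes. Insig1, which retains SCAP and SREBP in the endoplasmic reticulum and is itself an SREBP target, had 37.4, 37.5 and 36.7 FPKM in Ctrl and 42.7, 43.9 and 43.4 in ZA (log2 fold change 0.21, adjusted p = 0.0304 from limma). Srebf2, which encodes SREBP2, had a log2 fold change of 0.11 with an adjusted p of 0.250 from limma. The 3 genes that supply cytosolic acetyl-CoA, Acss2, Acly and Slc25a1, had log2 fold changes of 0.30, 0.09 and 0.10. The adjusted threshold was passed by 0 of them, though all 3 were apart and higher, against 11.4% of all genes. Differences in the number of calls between lists were not tested. Of the 7 called genes in the sterol and SREBP lists, 0 stayed called without Ctrl 1, Ctrl 2 or ZA 2, 1 without Ctrl 3 or ZA 3, and 5 without ZA 1. Likewise 0 of the 7 stayed called without a filter or without a trend, 5 with quantile normalization, and 6 with centring or with the replicate block, where Lss had an adjusted p of 0.0540.

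**Figure D4:**
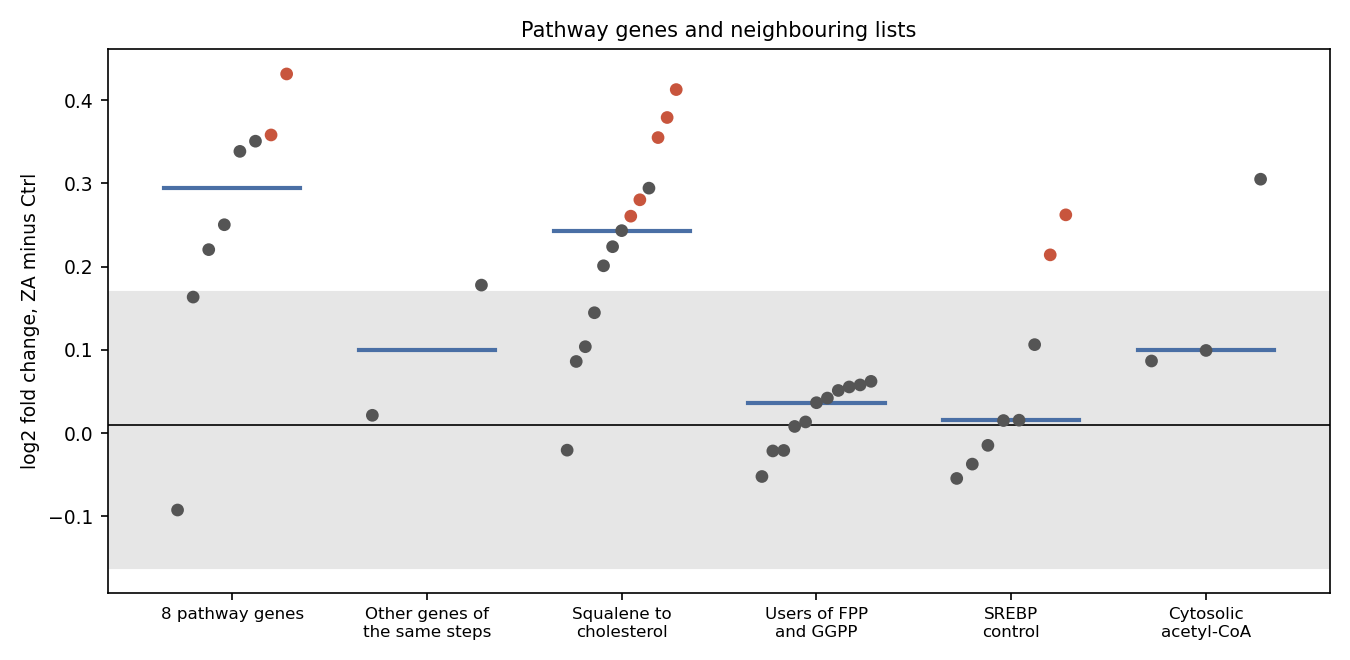
Log2 fold changes, as ZA minus Ctrl on the y axis, of the tested genes of 6 lists, one point per gene. Red marks an adjusted p under 0.05, blue lines are medians, the black line is the median of all genes tested, and the grey band holds the central 95% of them, from -0.16 to 0.17. Of the 8 pathway genes, 6 lie above the band, while the users of FPP and GGPP lie inside it.

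Among the genes whose values ran most like those of Fdps over the 6 libraries were Ncf1, Pgam5, Pstpip2 and Csf1r, with Pearson r of 0.998, 0.997, 0.995 and 0.991 on the log2(FPKM + 1) scale. Of 9787 genes compared, 102 had r above 0.95. The 6 points fall into 2 groups, so that any gene with tight groups and a shift in the same direction scores high. Ncf1, a subunit of the NADPH oxidase, had 167.0, 165.7 and 165.2 FPKM in Ctrl and 177.3, 179.4 and 185.1 in ZA, a log2 fold change of 0.12 against 0.36 for Fdps.

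Macrophage markers were high in all libraries, with 8 of 8 genes at a mean of 23.9 FPKM or more. Of these 8, 4 were apart and higher in ZA, against 11.4% of all genes tested, with 0 called: Adgre1, Csf1r, Cd68 and Cd14, with log2 fold changes of 0.13, 0.11, 0.02 and 0.12. The summed FPKM of 11 neutrophil and progenitor markers was 36.8 to 52.1 in Ctrl and 33.0 to 37.9 in ZA, with Ly6g at 0 in every library. Of these 11, 7 were tested, and all 7 had lower means in ZA, with a median log2 fold change of -0.27. Among the 7, 4 were apart and lower in ZA, Ngp, Elane, Mpo and Prtn3, against 6.76% of all genes tested, with 0 called. The 6 stromal markers summed to 18.9 to 34.1 in Ctrl and 16.7 to 24.0 in ZA, the 5 osteoclast markers, nearly all of it from Ctsk and Acp5, to 40.3 to 46.9 and 38.6 to 42.4, the 6 lymphocyte markers to 0.504 to 0.789 and 0.292 to 0.595, and the 4 dendritic cell markers to 0.292 to 0.347 and 0.307 to 0.459. The part of these markers and cells in the differences of the pathway genes was not tested.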

How the data were processed

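RNA of 3 Ctrl and 3 ZA BMDM libraries was sequenced as 150 bp paired-end reads. Per the labels, libraries were made with the VAHTS Universal V10 kit, beside which a SMARTER kit is named. FPKM values, which scale fragments by gene length and library total, were deposited by the authors for each library on its own. The submitters' processing notes name the build mm9, and the aligner, the counter and its strand setting are not given in the sources used here.

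Separators were complete in 11 of the 35434 deposited rows, and elsewhere symbol and values run together. Possible cuts were compared by how closely all 6 values came to whole fragments at a shared gene length, and the best was taken where it led the next by 3 powers of 10 in chance probability. In this way 19000 rows were cut, while 16046 rows held 6 zeros and 363 had a single possible cut. Together 35409 rows were restored and 25 left out. Of the 11 rows with complete separators, 10 were restored identically and 1 was left out. Of 2000 rows simulated as whole fragments from rows cut in this way, 1999 were restored exactly, 0 wrongly. The recovered lengths of 13 mitochondrially encoded genes equal those in RefSeq. Library totals were 41230600 to 42155808 fragments, and tested genes had a median of 1396 fragments. Counting error covers sampling of fragments alone.

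Values were compared as log2(FPKM + 1), which understates changes of low genes, with limma 3.58.1 in R 4.3.3 (lmFit, eBayes with a trend), with two-sided p-values, Benjamini-Hochberg adjustment and a threshold of 0.05, for 9795 genes whose mean FPKM reached 1. Libraries of a group were not duplicates, with a chi-square per gene of 3.52 to 9.73. The alternatives were a pseudocount of 0.1, no filter, a mean FPKM of 5, centring, quantile normalization, no trend, the replicate block, voom on recovered fragments, and leaving out each library. Named beside the 8 genes are, for each list, those with an adjusted p under 0.05 and the 3 smallest p, and the 5 genes most like Fdps. A few genes that the rule names are left out of the text. Neighbouring or overlapping genes were named after their values were seen. The members and lists were chosen with earlier results of these data known. Shared stretches of 150 bases were counted on both strands. Python 3.11.15, NumPy 2.4.6, pandas 2.3.3 and Matplotlib 3.10.9 were used.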

Additional observations from a re-analysis of the deposited data

How the results depend on the processing

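The directions of the 8 genes held under each of the 14 alternatives that could be computed for them (13 for Acat2, Pmvk and Ggps1, which a filter of 5 FPKM removes), and their median log2 fold change was 0.22 (without Ctrl 1) to 0.35 (with a filter of 5 FPKM). The largest move was below 0.0796, the SD over the Ctrl libraries of the median deviation of the 8 genes from their Ctrl means. Much of the agreement in direction of the 8 genes was fixed in advance. Changing the filter, dropping the trend or adding the replicate block cannot alter the log2 fold change of a gene. For Hmgcs1, Pmvk, Mvd, Idi1, Fdps and Ggps1, whose groups were apart, neither leaving out 1 library nor the other pseudocount can reverse it. Their direction was open to change only with centring, quantile normalization and voom. The calls depended on the settings. Genes called higher over all genes went from 20 to 1 without a filter, 11 with centring on the median, 10 with quantile normalization, 0 without a trend, 41 with the replicate block and 71 with voom on fragments. Genes called lower went from 16 to 0, 10, 1, 37 and 61 without a filter, with quantile normalization, without a trend, with the replicate block and with voom. Of the 8 genes, the 2 called became 0 without a filter or a trend, 1 with centring or quantile normalization and 4 with voom. For Idi1 the log2 fold change was 0.43 without a filter (adjusted p = 0.239), 0.42 with centring (0.0503), 0.42 with quantile normalization (0.0577) and 0.43 without a trend (0.102). For Fdps it was 0.36 without a filter (0.231) and 0.36 without a trend (0.0993). Voom called Hmgcs1 (0.23, adjusted p = 0.0271) and Mvd (0.37, adjusted p = 0.0248). Leaving out 1 library gave 0 to 14 genes higher and 0 to 11 lower, 0 to 1 of the 8 genes, log2 fold changes of 0.38 to 0.48 for Idi1 and 0.30 to 0.40 for Fdps. Leaving out 1 library took the log2 fold change of Acat1 from -0.0046 (without Ctrl 2) to 0.053. Over the 20 other named genes, 219 of 278 values kept direction and side of the threshold, 53 lost the call, 5 gained it and 1 changed sign. The cause of these moves was not tested.

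Same-numbered libraries had correlations of their deviations of 0.285, 0.0394 and 0.281, and 6 of 6 libraries correlated best with their own number. These values do not settle whether the number pairs the libraries, and the main fit leaves it out. In the replicate block the adjusted p was 0.0119 for Idi1, 0.0275 for Fdps and 0.0549 for Hmgcs1.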
